A study of Mus musculus with 2 samples.

Results

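The E14 cycling mesenchymal cells of the mouse utricle were 627 of the 11588 E14 barcodes that passed the cell filter (5.41%) and of 15669 in both libraries together. They were chosen by their counts: no UMI (unique molecular identifier, 1 captured transcript) of Epcam, an adhesion molecule of epithelia, at least 2 UMIs of Col1a2, a collagen I chain of mesenchymal cells, and at least 3 UMIs of Mki67 and Top2a together. The same Epcam and Col1a2 limits gave 5024 mesenchymal cells, of which 3879 had no Mki67 or Top2a UMI and served as the noncycling cells. The other 518, with 1 or 2 UMIs, were in neither group. The study took utricles of wild-type (WT) mice, detached their sensory epithelium with thermolysin, and profiled the dissociated cells by droplet-based scRNA-seq at E14 (embryonic day) and P2 (postnatal day), with several animals in a harvest and no treatment named in the labels. The mesenchymal cells described here are those that came along with that epithelium. With 1 library at each age, nothing below has a replicate check. Cells of 1 library are not replicates, so no test was made, and the intervals cover counting error only.

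The utricle is a vestibular organ that senses gravity and linear acceleration. Its epithelium lies on periotic mesenchyme, a tissue of neural crest and mesodermal origin that later forms the connective tissue and the bony capsule of the inner ear and that depends on the transcription factor Pou3f4. A dividing cell licenses replication origins before S phase, and makes nucleotides and copies its DNA in S phase, under E2F transcription factors. In G2 and M phase it then condenses its chromosomes, builds a spindle and divides, with genes controlled by the DREAM complex and by B-Myb and FoxM1. Mki67 encodes a protein of the surface of mitotic chromosomes, and Top2a encodes the topoisomerase that untangles replicated DNA.

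The promoters of 4 genes are shown because they stand for both gene programs of the cycling cells described next. Pclaf, a PCNA-binding factor, and Clspn, an adaptor of the replication checkpoint, had the highest ratios among the replication genes with an E2F motif in the printed stretch, and Kif18b, a kinesin of the mitotic spindle, and Hmmr, a spindle assembly factor, had the highest among the mitosis genes with the motif TTTGAA. Each line gives 90 bases before and 30 after the transcription start, 5′ to 3′ on the gene's strand, from RefSeq on GRCm38.p6. Capitals mark an E2F motif in the first pair and TTTGAA, the core of the cell cycle homology region, in the other pair.
Pclaf (chr9:65890233-65890352, plus strand): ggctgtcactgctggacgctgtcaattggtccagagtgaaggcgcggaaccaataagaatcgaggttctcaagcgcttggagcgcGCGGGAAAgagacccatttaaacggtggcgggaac
Clspn (chr4:126556890-126557009, plus strand): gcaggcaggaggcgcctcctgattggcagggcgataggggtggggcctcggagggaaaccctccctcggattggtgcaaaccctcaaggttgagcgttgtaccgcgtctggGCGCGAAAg
Kif18b (chr11:102925095-102925214, minus strand): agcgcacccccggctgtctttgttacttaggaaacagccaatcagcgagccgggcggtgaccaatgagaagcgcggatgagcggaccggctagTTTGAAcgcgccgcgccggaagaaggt
Hmmr (chr11:40733408-40733527, minus strand): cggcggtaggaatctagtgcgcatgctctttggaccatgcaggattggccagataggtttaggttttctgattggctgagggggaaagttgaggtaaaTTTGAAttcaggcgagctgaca
Each of these stretches also held 2 CCAAT boxes, counting both strands.

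Before the results, the label was checked against marker genes. Genes of the otic mesenchyme were Pou3f4, Tbx18, Prrx1, Twist1, Otor and Coch. At least 2 UMIs over them were found in 93.5% of the cycling cells (exact binomial interval 91.2 to 95.3) and in 97.7% of the noncycling cells. Otor is so abundant that this limit separates cells poorly. It was found in 69.4% of the cycling cells with at least 2 UMIs of Sox10, a neural crest gene treated below. Pou3f4 was found in 28.6% of those and in 93.1% of the cycling cells with no Sox10 UMI. Otor, which encodes a secreted protein of the periotic mesenchyme, stood at 13360 CPM (UMIs of the gene per 1000000 UMIs of the group, exact 95% Poisson interval 13279 to 13442) in the cycling and at 16970 CPM in the noncycling cells. Pou3f4 stood at 305 CPM (293 to 317) and 421 CPM. Tk1, thymidine kinase, and Rrm2, the small subunit of ribonucleotide reductase, both S phase genes that the choice of cells did not use, stood at 160 and 151 CPM in the cycling cells and at 4.37 and 7.72 CPM in the noncycling cells. At least 1 UMI of Tk1 or Rrm2 was found in 81.8% of the cycling and in 6.50% of the noncycling cells. Epithelial and hair cell markers were low: over Cdh1, Krt8, Krt18, Esrp1 and Cldn3 the cycling cells held 209 UMIs, and over Pou4f3, Gfi1, Atoh1 and Myo7a 28. Col1a1, the other collagen I chain, had only 57 UMIs in the cycling cells, found in 3.03% of them, so the cells are called mesenchymal from Col1a2 and the otic mesenchyme genes.

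A minority of the cycling cells went against the label. In 49 of the 627 (7.81%, 5.84 to 10.2) there were at least 2 UMIs of Sox10, a transcription factor of neural crest, glia and melanocytes, against 67 of the 3879 noncycling cells (1.73%). In these 49 cells Foxd3, a transcription factor of neural crest and early glia, stood at 344 CPM (303 to 390) and in the 554 cycling cells with no Sox10 UMI at 3.55 CPM (2.27 to 5.28), while Pou3f4 stood at 70.8 and 336 CPM and Otor at 3303 and 14683 CPM. Foxd3 and this division were chosen after the values were seen. Their Col1a2 level was 899.8 CPM, against 1092 CPM in the other 554. Melanocyte markers reached 2 UMIs in 11 cycling cells, endothelial markers in 6 and immune markers in 5. Leaving out every cell with at least 2 UMIs over Ptprc, C1qa, Pecam1, Cdh5, Sox10, Dct and Pmel removed 64 cycling cells (10.2%) and 108 noncycling cells (2.78%) and left 563 and 3771. Ratios against the noncycling cells that then no longer passed 2-fold are given both ways below for the genes named. Markers of neural crest were not fully removed by this step. Foxd3 still stood at 10.6 CPM in the 563 cells and 6.07 CPM in the 3771, with a Sox10 UMI in 3.37% and 2.04%. Doublets were not removed, and 122 of the cycling cells (19.5%) and 188 of the noncycling cells (4.85%) were among the highest doublet scores. Such scores were found in 26.5% of the 49 cycling cells with at least 2 Sox10 UMIs and in 17.9% of the 554 with none. None of the cycling barcodes was among the 23 barcodes that both libraries share. Haemoglobin genes, which can mark free RNA from red blood cells, stood at 8914 CPM in the cycling and 10589 CPM in the noncycling cells. Of the 69033 haemoglobin UMIs in the cycling cells, 19436 were in 1 cell.

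Cycling cells were 12.5% of the E14 mesenchymal cells (627 of 5024, 11.6 to 13.4) and 11.7% (10.8 to 12.6) without the cells carrying markers of other types. Their Mki67 and Top2a UMIs ran from 3 to 40 with a median of 10, and their Col1a2 UMIs had a median of 10. At the limit, 83 cells had exactly 3 UMIs and were inside, with Tk1 at 94.9 CPM, and 134 had exactly 2 and were outside, with Tk1 at 61.4 CPM, so the limit cuts through a continuous range. The cycling cells were deeper, with a median of 11369 UMIs and 3376 genes against 6946 UMIs and 2407 genes in the noncycling cells. A gene is found more readily in a deeper cell, so shares of cells with a gene are not matched for depth unless given after thinning. With every cell thinned to 4000 UMIs, and 719 shallower cells left out, 19.1% of the mesenchymal cells (17.98 to 20.3) had a Mki67 or Top2a UMI. Hair cells (at least 2 UMIs of Pou4f3 and Gfi1), which have left the cell cycle, gave the background. At P2 5.24% of 1375 hair cells had such a UMI at a median of 15739 UMIs. At E14 42.7% of 515 had one at a median of 22800 UMIs, and 29.7% had at least 3, so the limit of 3 UMIs alone did not keep E14 hair cells out. Of these E14 hair cells 28.2% also had at least 2 Col1a2 UMIs. After thinning, the E14 hair cell share was 17.98% (14.7 to 21.7), and its interval overlapped that of the mesenchymal cells. Of the 515 E14 hair cells 245 were among the highest doublet scores. With these scores removed from both kinds of cells, the thinned share was 8.20% (5.15 to 12.3) in the hair cells and 17.5% (16.3 to 18.7) in the mesenchymal cells. The thinned share of mesenchymal cells was thus near that of the hair cells with high doublet scores kept and above it with them removed. At P2 0.8% of hair cells had at least 3 UMIs. The level of Tk1 and Rrm2, given above, is the measure of cycling that the choice of cells did not use.

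**Figure D1:**
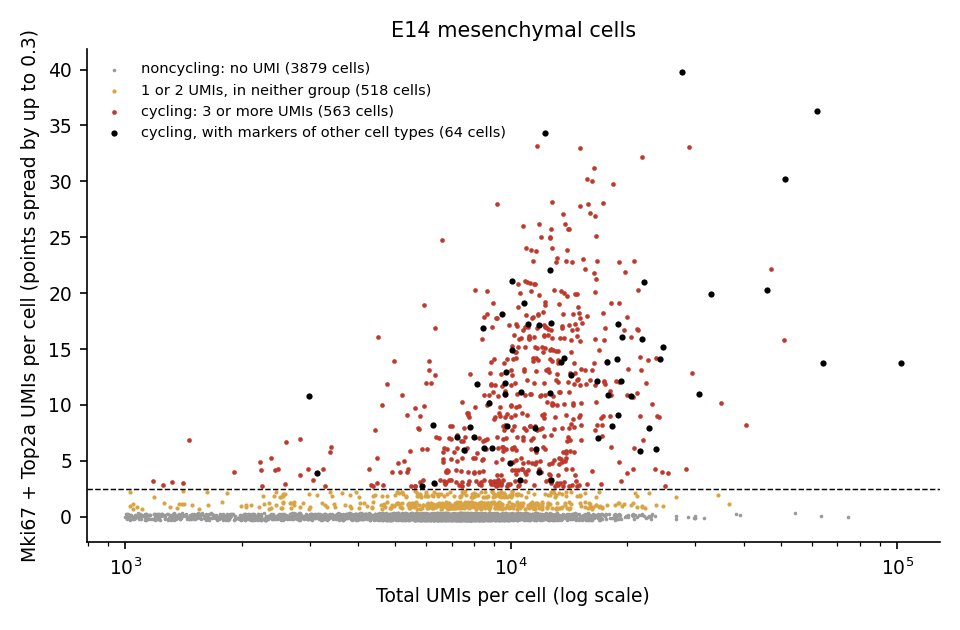
Mki67 and Top2a UMIs (vertical axis) against total UMIs (horizontal axis, log scale) of each of the 5024 E14 mesenchymal cells. The 627 cycling cells lie above the dashed line, 64 of them (black) with markers of other cell types, and the 3879 noncycling cells lie at 0 (points are spread vertically).

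At P2 the same limits gave only 9 mesenchymal cells, so the ages cannot be compared. Of these, 1 was cycling, with 12 Top2a, 3 Mki67, 6 Tk1 and 5 Rrm2 UMIs beside 10 Pou3f4 and 151 Otor UMIs. The other 8 had no Mki67, Top2a, Tk1 or Rrm2 UMI.

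Across the genome, 775 of 12257 genes with at least 50 UMIs were at least 2-fold higher in the cycling cells (6.32%) and 610 were at least 2-fold lower (4.98%). Mki67 and Top2a chose the cells, and the ratios come from the same cells, so they are descriptions. Of the 254 genes in 8 lists of cell cycle genes, 217 were at least 2-fold higher. Without the cells carrying other markers, 632 of 12037 genes were higher and 684 lower, and 219 cell cycle genes were among the higher ones. The 10 genes with the highest ratios were Gm3550, Kif18b, Hist1h2af, Neil3, E2f8, Pif1, Hmmr, Esco2, Cep55 and Mxd3. Kif18b had 246 UMIs in the cycling and 4 in the noncycling cells, 31.8 against 0.144 CPM, a ratio of 220 (84.9 to 814). Hmmr, at 122 against 1.08 CPM, had a ratio of 113 (78.5 to 168). Esco2, the acetyltransferase that makes sister chromatid cohesion, stood at 113 against 1.05 CPM. It was found in 61.7% of the cycling and 0.593% of the noncycling cells, and in 33.0% and 0.338% after thinning. Cep55, which acts in the last cut between daughter cells, stood at 27.2 against 0.253 CPM.

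**Figure D2:**
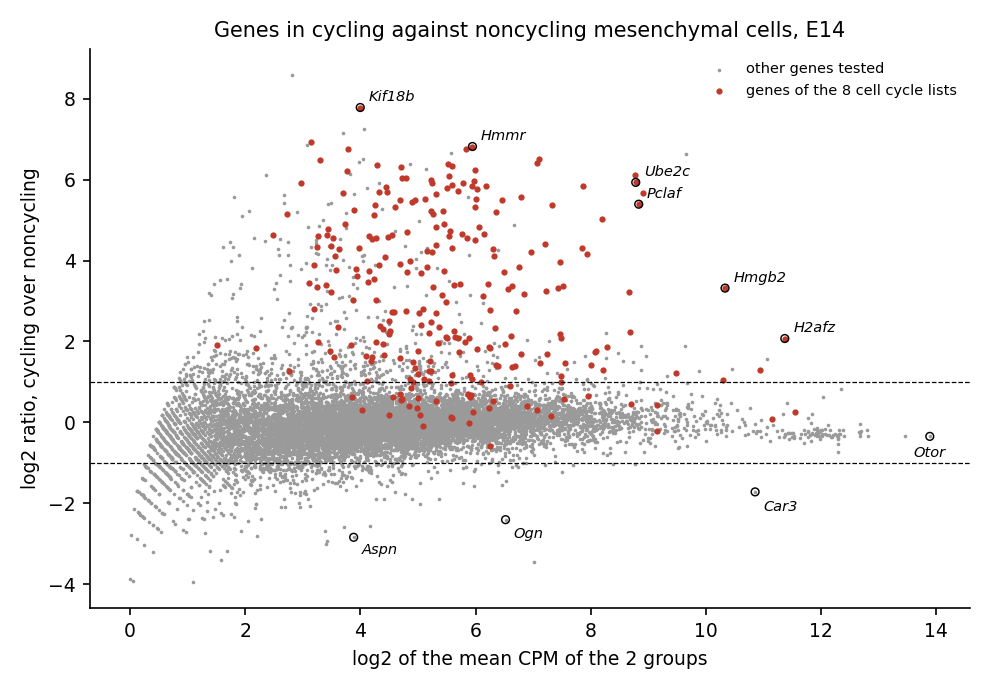
Log2 ratio of cycling over noncycling mesenchymal cells (vertical axis) against the log2 of the mean CPM of both groups (horizontal axis) for the 12257 genes with at least 50 UMIs. Genes of the 8 cell cycle lists (red) lie mostly above the upper dashed line at 2-fold, with Kif18b at 220-fold, and Car3, Ogn and Aspn lie below the lower one.

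Genes of DNA replication were higher in the cycling cells almost without exception. In the replication list 48 of 49 genes were at least 2-fold higher, beside 6.32% of all genes, and the median ratio was 4.25. Pclaf, which binds the sliding clamp PCNA, had the highest ratio, with 6900 UMIs (891 CPM) against 588 UMIs (21.2 CPM), a ratio of 42.0 (38.6 to 45.8). Nasp, a histone chaperone, stood at 416 against 125 CPM, Slbp, which binds histone mRNA, at 202 against 73.8 CPM and Lig1, the ligase that joins Okazaki fragments, at 182 against 26.9 CPM. Rpa3, a subunit of the single-strand binding complex, was the member below 2-fold, at a ratio of 1.87 (1.73 to 2.02). The MCM helicase gene Mcm2 was found in 12.9% of the noncycling cells and was 2.43-fold higher (2.14 to 2.76), less than Pclaf or Clspn (19.9-fold, 16.5 to 24.3).

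Nucleotide supply moved in part. Of its 24 genes 11 were at least 2-fold higher, beside 6.32% of all genes, and 13 lay between 1 and 2. The higher ones included Tyms, thymidylate synthase, at 312 against 31.5 CPM (9.93-fold), Dut, which breaks down dUTP, at 421 against 123 CPM (3.42-fold), and Dctpp1 at 248 against 112 CPM (2.22-fold). Nme1, a nucleoside diphosphate kinase and the member with the most UMIs, stood at 478 against 351 CPM.

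Among the lists, mitosis had the highest median ratio. The cells were chosen on Mki67 and Top2a, a gene of mitotic chromosomes and one of replicated DNA. This order of the lists cannot be told apart from that choice. All 49 genes of the mitosis list were at least 2-fold higher, beside 6.32% of all genes, with a median ratio of 45.0. So were 32 of 33 kinetochore and checkpoint genes, with a median of 24.3. Ube2c, the ubiquitin enzyme of the anaphase-promoting complex, stood at 866 against 14.2 CPM (61.1-fold, 55.1 to 67.8) and was found in 86.0% of the cycling and 6.88% of the noncycling cells. Cks2, a subunit that binds cyclin-dependent kinases, stood at 437 against 22.1 CPM, but its relative Cks1b was high in both groups, at 486 against 134 CPM. Arl6ip1, a membrane protein, stood at 677 against 144 CPM. In the kinetochore list Birc5 (survivin, of the chromosomal passenger complex) stood at 569 against 17.4 CPM (32.7-fold), Cenpa, the histone of centromeres, at 465 against 26.0 CPM (17.8-fold), Cenpf at 456 against 8.01 CPM (56.9-fold) and Spc24 of the NDC80 complex at 330 against 21.1 CPM (15.7-fold). Zwint was the member below 2-fold, at 1.45 (1.33 to 1.58), and was found in 34.8% of the noncycling cells.

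Chromosome structure, repair and histone genes followed. Of the condensin, cohesin and lamina list 19 of 24 were at least 2-fold higher, beside 6.32% of all genes. Among them were Hmgb2, a chromatin protein, at 2344 against 235 CPM (9.98-fold) and Hmgb1 at 2782 against 1124 CPM (2.47-fold). The 5 members below 2-fold, named after their values were seen like Rpa3, Zwint, Mcm2, Ccnd1 and Ccnd3, were the cohesin genes Smc1a, Smc3, Stag1 and Stag2 and the condensin II gene Ncaph2, with ratios between 1.49 and 1.98. Without the cells carrying other markers, Smc1a was at 2.04 and Ncaph2 at 2.07. Of 20 DNA repair genes 19 were at least 2-fold higher, among them Rad51ap1, a factor of homologous recombination, at 75.8 against 3.64 CPM (20.8-fold). Of 27 histone genes 22 were at least 2-fold higher, with H2afz at 4279 against 1017 CPM (4.21-fold). The replacement histones H3f3a and H3f3b, which are made throughout the cycle, stood at 2328 against 2187 CPM and at 3279 against 2741 CPM. Among genes in no cell cycle list, Hist1h2ap stood at 1597 against 16.1 CPM (99.5-fold). Copies of clustered histone genes are nearly identical, so the split of UMIs among Hist1h2af, Hist1h2an and Hist1h2ap is uncertain, and a poly(A) library captures their mRNAs in part only.

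Regulators of the cycle were higher in part. Of 28 cyclins, kinases and E2F regulators 17 were at least 2-fold higher, beside 6.32% of all genes. Among them were E2f8, a repressor of the E2F family, from 4 to 136 UMIs, and Fbxo5, an inhibitor of the anaphase-promoting complex, at 136 against 5.41 CPM (25.1-fold). The cyclin D genes, which act before S phase, did not pass 2-fold. Ccnd2 stood at 528 against 609 CPM (0.867, 0.838 to 0.898), Ccnd3 at 60.8 against 91.8 CPM and Ccnd1 at 58.9 against 59.1 CPM. Cdk4, their kinase, was 1.34-fold higher. Ccnd1 was 0.678-fold (0.590 to 0.776) without the cells carrying other markers.

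The list of cell cycle inhibitors held genes that were higher and genes that were lower. At least 2-fold higher were 4 of 17, beside 6.32% of all genes. They were Cdkn2c (p18), from 14 to 164 UMIs (41.9-fold, 24.3 to 78.4), Rbl1 (p107, 4.25-fold), Cdkn2d (p19, 3.32-fold) and Fzr1, an activator of the anaphase-promoting complex (2.80-fold). Cdkn1c (p57), the inhibitor with the most UMIs, stood at 575 against 886 CPM, a ratio of 0.649 (0.628 to 0.670), and was found in 90.3% of the cycling and 92.7% of the noncycling cells. Btg1, a gene of growth arrest, had 0.746 and Btg2 0.876, which was 0.556 without the cells carrying other markers. Genes of growth and Myc were nearly level: 0 of 18 passed 2-fold either way, with Ncl (nucleolin) at 736 against 549 CPM and Npm1 at 2030 against 1954 CPM. Ribosomal protein genes, a list added after the data were seen, had 0 of 90 past 2-fold and 82 below 1, with a median log2 ratio of -0.27, while the median of all genes was -0.04.

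**Figure D3:**
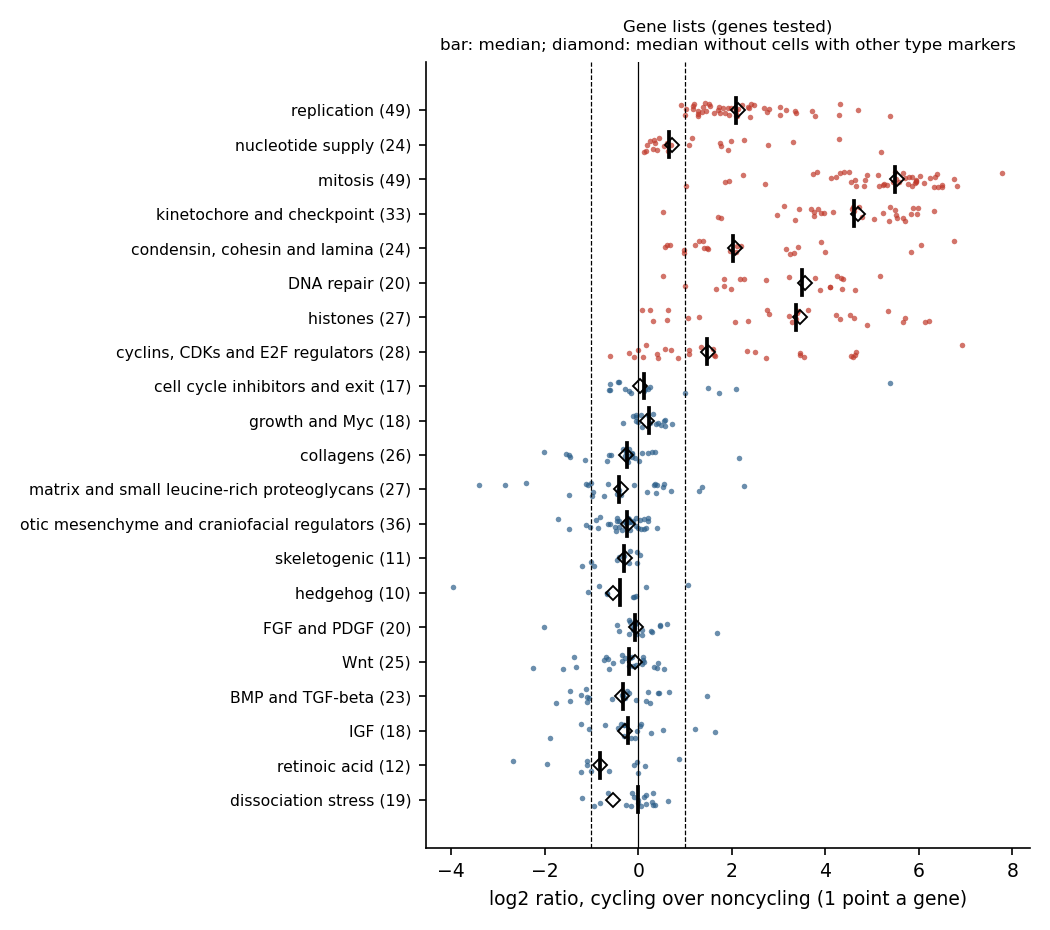
Log2 ratio of cycling over noncycling cells for each gene with at least 50 UMIs in 21 lists (red for the cell cycle, blue for others), with the list median as a bar and the median without cells carrying markers of other types as a diamond. The mitosis list has a median of 5.49, while lists of matrix and signalling genes lie around 0 or below it, and dissociation stress moves from 0.01 to -0.53.

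Some genes of the extracellular matrix were lower in the cycling cells and a few were higher. Of 27 genes of matrix and small leucine-rich proteoglycans 7 were at least 2-fold lower and 3 higher, beside 4.98% and 6.32% of all genes, and 11 lay above 1, with a median ratio of 0.755. With cycling cells taken at 1 or more Mki67 and Top2a UMIs, 4 were lower. Ogn (osteoglycin), which had the lowest ratio of the genes present in 10% or more of the noncycling cells, stood at 29.2 against 154 CPM (0.189, 0.165 to 0.216). It was found in 12.9% of the cycling and 31.4% of the noncycling cells, and in 5.97% and 26.2% after thinning. Aspn (asporin) gave 28 and 717 UMIs, 3.62 against 25.9 CPM (0.140, 0.0922 to 0.204), and Fmod (fibromodulin) 4 and 152 UMIs. Dcn (decorin) stood at 290 against 586 CPM (0.494) and Lum (lumican) at 95.3 against 199 CPM (0.478). Lox and Loxl1, enzymes that crosslink collagen and elastin, had ratios of 0.357 and 0.463. Without the cells carrying other markers, Dcn was at 0.532, Loxl1 at 0.503 and Lum at 0.492, 8 of 26 genes were at least 2-fold lower and 1 was higher, with Postn (periostin) going from 2.57 to 1.74. Sparc, the most abundant member, stood at 861 against 1188 CPM.

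Collagen genes were lower in part. Of 26 genes 1 was at least 2-fold higher and 5 were lower, beside 6.32% and 4.98% of all genes, and the lower ones were 3 with cycling cells taken at 1 or more UMIs. They were Col14a1 (44.8 against 131 CPM, 0.342), Col12a1 (29.1 against 81.6 CPM, 0.356), Col8a2 (0.365), Col6a1 (0.456) and Col8a1 (0.247). Col12a1 and Col14a1 coat fibrils. The collagens of cartilage, which were the most abundant, were near level, and Col2a1 and Col9a1 lay above 1 against depth-matched noncycling cells: Col2a1 stood at 1060 against 1104 CPM, Col9a3 at 831 against 781 CPM and Col9a1 at 650 against 716 CPM. Col15a1, a basement membrane collagen, had 4.46, but 0.437 without the cells carrying other markers, where Col6a1 was at 0.507.

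Most genes of the otic mesenchyme lay within 2-fold. None of 36 was at least 2-fold higher and 4 were lower, beside 4.98% of all genes, with a median ratio of 0.851. The lower ones were 1 with cycling cells taken at 1 or more UMIs. Tbx18 stood at 306 against 365 CPM (0.840), Coch (cochlin) at 1299 against 1497 CPM (0.867), Twist1 at 110 against 113 CPM and Prrx1 at 121 against 112 CPM. Car3, carbonic anhydrase 3, was the exception among the abundant genes: it had 6688 and 78702 UMIs, 864 against 2839 CPM, a ratio of 0.304 (0.297 to 0.312). It was found in 72.2% of the cycling and 78.4% of the noncycling cells, and in 58.7% and 75.1% after thinning. The other 3 were Foxc2 (0.358), Foxp2 (0.463) and Zic4 (0.486). Of these 4, Foxp2 at 0.514 and Zic4 at 0.541 were above the limit without the cells carrying other markers.

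Skeletogenic genes were few in UMIs: of 11 tested, Runx2 (11 and 91 UMIs) and Spp1 (43 and 309 UMIs, 0.498) were at least 2-fold lower. Of all genes 4.98% were lower. Without the cells carrying other markers Spp1 was at 0.201 and Runx2 at 0.5001. Sox9, the cartilage regulator, stood at 46.9 against 64.1 CPM and Matn4 at 186 against 228 CPM. Among the genes of lowest ratio outside the lists were Gjb2 (connexin 26, 13.04 against 52.7 CPM, 0.248), Clu (clusterin, 0.268), Ntrk2 (the receptor TrkB, 17.4 against 65.0 CPM, 0.268), Tcea3 (0.269), Ctsf (cathepsin F, 0.291), Nupr1 (0.303) and Scara5 (a ferritin receptor, 0.316). The low counts set a limit on the lower genes: 185 of the 610 had fewer than 100 UMIs, 103 were found in at least 10% of the noncycling cells, and for 24 the counting interval held 1. With noncycling cells matched on total UMIs, 268 of the 610 were again at least 2-fold lower, 339 of them having enough UMIs to be counted, and 83 of the 103.

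In the signalling lists some members were lower, most with few UMIs. Of 23 BMP and TGF-beta genes 1 was at least 2-fold higher and 8 were lower, beside 6.32% and 4.98% of all genes. The lower ones were 2 with cycling cells taken at 1 or more UMIs or with cells thinned first, and 5 with at least 5 Col1a2 UMIs. The 8 were the ligands Bmp2, Bmp4 (11.5 against 24.5 CPM, 0.468), Bmp5 (0.471), Gdf10 (0.365), Tgfb2 (24.0 against 56.2 CPM, 0.428) and Tgfb3 (0.363), and the extracellular regulators Chrd (0.459) and Bmper (0.294). Tgfb1 was higher (2.78-fold), but was at 0.754 (0.357 to 1.45) without the cells carrying other markers, where Bmp4 was at 0.507. Bmp2 rested on 7 and 52 UMIs, and its interval held 1. The BMP target Id3, with the most UMIs, stood at 1297 against 1350 CPM and Id1 at 166 against 124 CPM. The Wnt list had 4 of 25 genes at least 2-fold lower, beside 4.98% of all genes, and 2 with cycling cells taken at 1 or more UMIs. The 4 were the ligands Wnt2 (0.330) and Wnt6 (11.1 against 27.9 CPM, 0.399), the antagonist Frzb (20.8 against 54.1 CPM, 0.384) and Rspo3 (0.211). Wnt5a stood at 143 against 182 CPM and the Wnt target Nkd1 at 132 against 123 CPM.

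In the retinoic acid list 6 of 12 were at least 2-fold lower, against 4.98% of all genes, and the median ratio was 0.564. The lower ones were 1 with cycling cells taken at 1 or more UMIs, and 3 with cells thinned first or with at least 5 Col1a2 UMIs. The 6 were Aldh1a2 (0.465), which makes retinoic acid, Cyp26b1 (0.259), which breaks it down, the receptor Rarb (16.8 against 35.6 CPM, 0.471), Crabp2 (50.6 against 118 CPM, 0.429), which carries it to the nucleus, Rbp4 (2.84 against 18.1 CPM, 0.157) and Dhrs3 (0.494). In the hedgehog list 2 of 10 were at least 2-fold lower and 1 was higher, beside 4.98% and 6.32% of all genes. The lower ones were Hhip (2 and 111 UMIs) and Gli1 (8 and 60 UMIs, interval from 0.197). Over the alternatives Hhip reached 0.645 and Gli1 0.990. Foxf2 was higher (34 and 58 UMIs, 2.10-fold), but was at 1.85 without the cells carrying other markers. In the FGF and PDGF list 1 of 20 was at least 2-fold lower and 1 was higher, near the 4.98% and 6.32% of all genes. Fgf18 was lower (14 and 202 UMIs) and Fgf9 higher (67 and 75 UMIs, 3.20-fold), but Fgf9 was at 1.56 (0.797 to 2.89) without the cells carrying other markers. Pdgfra, a receptor of mesenchyme, stood at 185 against 208 CPM.

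In the IGF list 3 of 18 were at least 2-fold lower, beside 4.98% of all genes, with 1 when cycling cells were taken at 1 or more UMIs and 5 without the cells carrying other markers. They were the ligand Igf1 (9.04 against 33.4 CPM, 0.271), Igfbp5 (109 against 253 CPM, 0.429) and Meg3 (0.479). Igfbp2 and Igfbp4, binding proteins with more UMIs, stood at 1050 against 1289 CPM and at 834 against 1025 CPM. Mest (2.33-fold) and Igfbp7 (3.12-fold) were higher in all cycling cells, but were 1.24 and 0.498 without the cells carrying other markers. In the 49 cells with at least 2 Sox10 UMIs Mest stood at 1167 CPM, against 106 CPM in the cycling cells with none.

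The dissociation stress genes changed most with the cells of other types. In all cells 1 of 19 was at least 2-fold lower, beside 4.98% of all genes, and the median log2 ratio was 0.01. Fos, an immediate early gene, stood at 745 against 663 CPM. Without the cells carrying other markers, 1 was at least 2-fold lower and the median log2 ratio was -0.53, with Fos at 441.2 against 594 CPM (0.742, 0.713 to 0.772), Jund at 0.704 and Ier2 at 0.861. In the 49 cycling cells with at least 2 Sox10 UMIs, Fos stood at 3441 CPM. Hspa8, a chaperone, stood at 1334 against 1075 CPM in all cells.

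The cycling cells could be ordered by Ccnb1, Cdc20 and Plk1, genes that accumulate late in G2 and in M phase. No such UMI was found in 145 cells (23.1%), 1 or 2 in 172 (27.4%) and at least 3 in 310 (49.4%, 45.5 to 53.4). Median totals were 10022, 10678.5 and 12642 UMIs, so the late cells were also the deepest. The late share depends on how the cells were chosen and ran from 26.2% to 57.9% over the alternatives. Summed replication genes stood at 6536, 6529 and 3744 CPM in this order. Mitosis genes, summed without the 3 that made the groups, stood at 2529, 3824 and 8795 CPM. Between the late and early groups 276 of 8621 genes were at least 2-fold higher in the late (3.2%) and 97 in the early group (1.13%), and 42 of 46 mitosis genes were late and 18 of 47 replication genes early.

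Among single genes, Ung, the uracil glycosylase, fell from 70.4 to 30.3 and 5.52 CPM. Ccne2 (cyclin E2) went from 82.6 to 46.9 and 12.6 CPM, E2f1 from 67.7 to 50.6 and 17.0 CPM and Mcm2 from 100.2 to 69.9 and 27.1 CPM. Their intervals in the first and last group did not overlap. On the late side Ube2c went from 182 to 298 and 1348 CPM, Aspm, of the spindle pole, from 18.97 to 38.1 and 138 CPM, Tuba1c, a tubulin, from 18.97 to 31.3 and 185 CPM and Pif1, a DNA helicase, from 0.677 to 5.74 and 26.9 CPM. Kif18b, whose promoter is printed above, was 4.73-fold higher in the late than in the early group and Hmmr 4.19-fold, while Pclaf was at 0.698. Igfbp7 and Egfl7, which endothelial cells also express, were 7.32-fold and 11.1-fold higher in the late group. The part of the 6 cycling cells with endothelial markers in this was not tested.

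**Figure D4:**
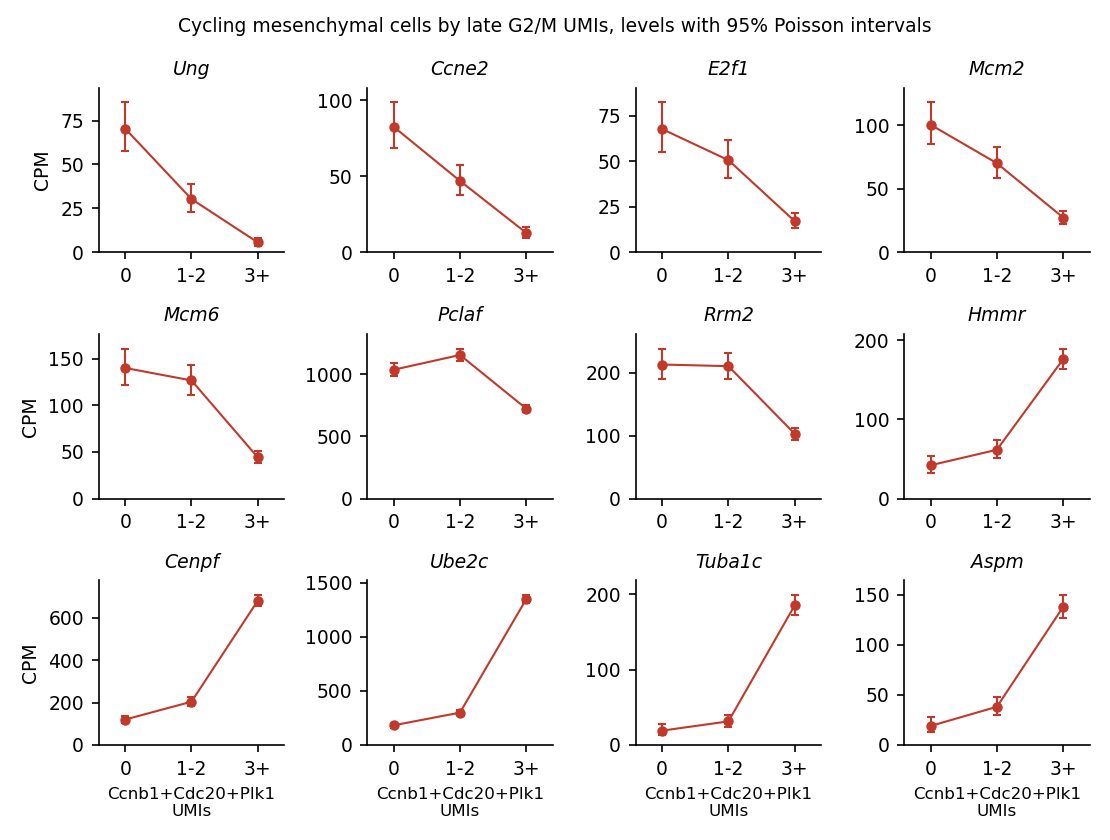
Levels of 12 genes in CPM (vertical axes, from 0) in the 145, 172 and 310 cycling cells with 0, 1 to 2 and at least 3 UMIs of Ccnb1, Cdc20 and Plk1 (horizontal axes), with 95% Poisson intervals. Ung falls from 70.4 to 5.52 CPM and Ube2c rises from 182 to 1348 CPM.

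The share of cycling cells differed between mesenchymal cells grouped by some of the gene pairs. Aspn, Col12a1 and Car3 were already lower in these same cycling cells, so the shares for their pairs restate those ratios. Of mesenchymal cells with at least 2 UMIs of Aspn and Col12a1, a fibroblast profile, 38 of 529 were cycling (7.18%, 5.13 to 9.73), against 13.1% (12.1 to 14.1) of the others. After thinning, a Mki67 or Top2a UMI was found in 11.2% (8.55 to 14.3) and 20.2%. Cells with Car3 and Aqp1 were cycling in 11.5% (10.5 to 12.6) and those without in 15.1% (13.3 to 17.2), and after thinning in 17.2% and 24.9%. These orders held at both depths, which use the same cells and gene groups set before thinning. Without the cells carrying other markers the share with Car3 and Aqp1 was 0.861 of that without, against 0.758 in all cells. Cells with Chst1 and Apod were cycling in 14.9% (13.02 to 16.9) against 11.6% (10.6 to 12.7), but thinned shares were 20.1% and 18.8% with overlapping intervals. For Pou3f4 the order turned with depth, from 13.4% against 10.6% in all cells to 18.3% against 21.4% after thinning. It turned for Zic1 and Zic4 too, from 13.4% against 12.3% to 18.05% against 19.3%, with overlapping intervals at both depths. The intervals also overlapped for Osr1, at 11.1% against 12.5% and, after thinning, 14.7% against 19.4%.

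**Figure D5:**
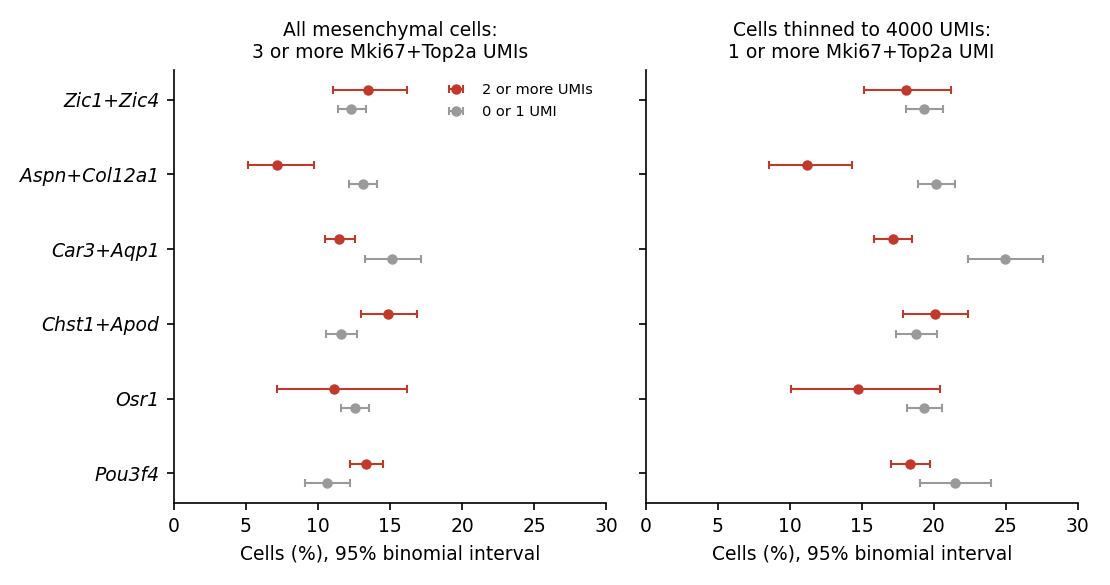
Percentage of mesenchymal cells that were cycling (left, all cells) or had a Mki67 or Top2a UMI (right, each cell thinned to 4000 UMIs), for cells with at least 2 UMIs of the named genes before thinning (red) and for the other cells (grey), with 95% binomial intervals. Cells with Aspn and Col12a1 lie lowest, at 7.18% and 11.2%.

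Cycling epithelial cells of the same library (at least 3 Mki67 and Top2a UMIs, at least 2 Epcam and no Col1a2 UMI) were 296 and had a median of 20531.5 UMIs. They were 11.2% (10.0 to 12.5) of the epithelial cells. Against noncycling epithelial cells 46 of 48 mitosis genes and 40 of 49 replication genes were at least 2-fold higher, beside 3.43% of all genes. Set directly against the cycling epithelial cells, 9.47% of 11567 genes were at least 2-fold higher in the cycling mesenchymal cells. So were 20 of 49 mitosis genes, 14 of 27 histone genes and 4 of 49 replication genes. The limit of 3 UMIs is a smaller part of a deeper cell, and the medians were 11369 UMIs in the mesenchymal and 20531.5 in the epithelial cycling cells. The part of this difference in these counts was not tested. In the cyclin D genes the cells differed by type: Ccnd2 stood at 528 CPM in mesenchymal and 86.0 CPM in epithelial cycling cells (6.14-fold, 5.68 to 6.66), and Ccnd1 at 58.9 and 347 CPM (0.169, 0.153 to 0.187). Ccnd3 differed little, at 60.8 and 53.6 CPM. Cdk6, a kinase of these cyclins, was 4.13-fold higher in the mesenchymal cells, and Cdk4 was 1.01-fold.

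Among the cycling cells, genes outside the cycle varied from cell to cell. In the 603 cells with at least 4000 UMIs, thinned to that depth, the highest ratios of variance to mean were those of Otor (19.8), Malat1 (17.9), Fos (16.8), Dbi (15.2), Gm42418 (13.5) and Car3 (13.1). The next were Crym, Fth1, Jun, Mest, Tmsb4x, Cst3, Mgp, Ednrb and Fabp7. Such variation was not particular to the cycling cells. In noncycling cells thinned alike, Otor (28.0), Malat1 (25.3), Gm42418 (14.0) and Car3 (22.5) had higher ratios of variance to mean. Fos (11.9) and Dbi (11.2) had lower ones. Across the 603 cycling cells Ednrb and Dbi had a Spearman's rho of 0.51 and Fos and Jun one of 0.53. The cells share 1 library, so these values are descriptions. Ednrb, a receptor of neural crest derivatives, stood at 1186 CPM in the 49 cells with at least 2 Sox10 UMIs and at 23.2 CPM in those with none, and Dbi at 5481 and 510.2 CPM. Car3 had a thinned median of 1 UMI and reached 65.

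The promoter motifs printed above were more frequent in the genes that were higher than in all genes tested. In windows of 300 bases, 250 before and 50 after the start, the TTTGAA motif, the box with the letters CCAAT, and 4 E2F motifs (TTTGGCGC, TTTCGCGC, TTTCCCGC and TTTGCCGC) were searched on both strands, and a window could hold several. In 27025 RefSeq windows TTTGAA was found in 18.1%, CCAAT in 37.9% and an E2F motif in 2.32%. In the windows of the 9745 genes that were both tested and matched, the shares were 11.6%, 39.3% and 4.47%. In the 38 replication genes with a window, 42.1% held an E2F motif, 71.1% CCAAT and 18.4% TTTGAA. The 42 mitosis genes held TTTGAA in 69.0%, CCAAT in 76.2% and an E2F motif in 7.14%. In the kinetochore genes TTTGAA was found in 46.4%. Of the higher genes 614 had a window, with TTTGAA in 27.4%, CCAAT in 55.9% and an E2F motif in 12.9%. The lower genes with a window held them in 11.6%, 37.6% and 2.04%. Such a match is a run of letters and not a measured binding site.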

How the data were processed

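Utricular cells of WT mice were profiled in 1 library at E14 and 1 at P2 with the 10x Genomics 3′ chemistry. The files hold whole UMI counts for each gene in each barcode, deposited without normalization, which the authors made with Cell Ranger 3.1.0 (Seurat 4.1.1 is also named in the submitters' processing notes). The study's methods name GRCm39 as the genome for these libraries, and the notes name mm10 as well. Of 31053 gene IDs, 31011 are in GENCODE M21, an annotation of GRCm38.

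A barcode was kept as a cell if it had 500 genes or more, 1000 UMIs or more and a mitochondrial share of no more than 15%. The E14 library held 15636 barcodes and 122892080 UMIs, and the P2 library 6251 barcodes and 57003553 UMIs. Counts were summed over the cells of a group and scaled to CPM. Levels have exact Poisson intervals, and ratios exact conditional binomial ones. A gene was counted as higher or lower at 2-fold if both groups together held at least 50 UMIs, and Mki67, Top2a, Epcam and Col1a2 were left out. For matched depth, cells were thinned at random without replacement to 4000 UMIs. Doublet scores came from simulated doublets, and the 1074 highest were removed only as an alternative. With 1 library at each age, no test was made. PCR duplicates are collapsed by UMIs, but the intervals cover counting error only.

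The cells and gene lists were chosen with earlier results of these data known. Genes named are the fixed markers, the 4 members of each list with the most UMIs in cycling cells, members past 2-fold, the 10 highest and 10 lowest ratios among genes of 100 UMIs or more that 10% of cells of the higher group held, the 10 highest in no cell cycle list, and the 15 most variable genes. Others named were chosen after their values were seen. Promoter windows were matched by symbol, for 9745 of the 12257 genes. Alternatives were other limits on Mki67 and Top2a, on Col1a2 and on cells, doublet removal, leaving out cells with other markers, thinning, depth matching, another pooling, another denominator and a lower gene minimum. The division by Sox10, the list of markers of other cell types, the ribosomal list and the comparison with hair cells without high doublet scores were added after seeing the data. Some results are not reported here. The scripts were tested on simulated data. Tables were handled with pandas 2.3.3 and numpy 2.4.6 in Python 3.11.15, intervals came from scipy 1.17.1, doublet scores used scikit-learn 1.9.0, and plots were drawn with matplotlib 3.10.9.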

Additional observations from a re-analysis of the deposited data

How the results depend on the processing

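No paired analysis was possible because each age had 1 library. The cause of each change was not tested, beyond what an alternative's own construction sets. The cycling share of mesenchymal cells (12.5%) was 22.8% at 1 or more Mki67 and Top2a UMIs, 9.08% at 6 or more, 10.9% with the highest doublet scores removed and 8.28% with cells thinned first. The late share (49.4%) was 30.04%, 57.9% and 26.2% at 1 or more, at 6 or more and after thinning. The share ratio for Aspn and Col12a1 (0.548) was 0.328 without the highest doublet scores and 0.305 after thinning, and that for Car3 and Aqp1 (0.758) was 0.861 without other markers and 0.445 after thinning. For Chst1 and Apod it turned to 0.869, for Pou3f4 to 0.588 and for Zic1 and Zic4 to 0.730, after thinning. The 610 lower genes were 265 at 1 or more UMIs and 1197 with a minimum of 10 UMIs. Lower matrix genes were 4, and lower otic mesenchyme genes 1, at 1 or more UMIs, and the latter 2 without other markers.

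Over 170 named genes and 11 alternatives, 28 of 1870 log2 ratios changed sign in 18 of the 158 genes whose reported counting interval left out a ratio of 1. Another 24 changed sign in 8 of the 12 genes whose interval held 1 (Twist1, Scx, Sox5, Sufu, Lef1, H19, Bmp2 and Jun), with Bmp2 at 0.72 after thinning and, without other markers, Jun at -0.54, Twist1 at 0.12, Scx at 0.081 and Lef1 at 0.013. The list of other markers was set after seeing the data, and results for the list planned before are not reported here. For the 18 genes, the values after thinning were Npm1 -0.054, Col2a1 0.27, Col9a1 0.23, Coch 0.028, Etv1 0.16, Wif1 0.0085, Col15a1 -0.94, Runx2 0.022, Igfbp7 -1.27 and Col1a1 0.32. Without other markers they were Col2a1 0.068, Bambi -0.028, Fos -0.43, Ier2 -0.22, Col15a1 -1.19, Tgfb1 -0.41, Igfbp7 -1.004 and Tmsb4x -0.040. Against depth-matched cells they were Col2a1 0.31, Col9a1 0.38, Coch 0.12, Matn4 0.27, Pdgfra 0.013, Etv1 0.17, Wif1 0.033 and Col1a1 0.19. With CPM averaged over cells it was Igfbp7 -0.16, and at 1 or more UMIs Hspa1a 0.15. Of 462 list counts under an alternative, 410 were within 1.5 times the reported count. Of the 775 higher genes 66.1% to 100% were also higher under each alternative, and of the 610 lower genes 39.0% to 100% were also lower.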
